A study of Mus musculus with 39 samples.

Results

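The estrogen receptor (ER) occupied 7136 sites in 7438 mouse mammary cells given estradiol (E2). Of these, 1339 sites, or 18.8% (exact binomial 95% interval 17.9 to 19.7%), held ER without the glucocorticoid receptor (GR) and had no ER site in Afos cells given E2. They were chosen in 3 steps by an overlap of at least 1 bp. A site had to be in the 7438 ER list named for both hormones, in neither the GR list of dexamethasone (Dex) nor the GR list named for both hormones, and in neither of the 2 ER E2 lists of 7438 Afos cells. They are called Afos-absent sites here, which says that no site was called there and not that no receptor was present. The 24 lists of the series held 110608 sites in all.

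ER and GR are steroid receptors that bind DNA when they hold their ligand. ER recognizes estrogen response elements directly, and it is also known to reach DNA through other factors, among them AP-1, a dimer of Fos and Jun proteins. GR recognizes glucocorticoid response elements and is also known to meet AP-1 at many of its sites. A protein called A-Fos is known to pair with Jun and so hold AP-1 away from DNA. The labels do not say what Afos is in these cells.

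All cells carried GFP-GR and Cherry-ER under a tetracycline-regulated promoter, so transgenes supplied both receptors, and 7438 Afos cells carried Afos under such a promoter too. Expression was induced by 24 h without tetracycline in charcoal-dextran serum. Cells were then left untreated or given 100 nM dexamethasone, a synthetic GR ligand, 100 nM estradiol, the ER ligand, or both hormones (Dex+E2) for 30 min before ChIP-seq, which maps the DNA that an antibody against GR or ER pulls down. In 7438 each receptor and treatment had 1 list of called sites, which leaves no replicate check there, and in 7438 Afos each had 2 replicate lists.

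For both receptors in 7438, the list named for both hormones is labelled untreated, and the list named for untreated cells is labelled Dex+E2. The selection went by the names. By the labels, 26 sites would have been chosen in place of 1339. With both lists named for both hormones left out of the selection there would have been 2026. The lists named for both hormones held 11982 ER and 9503 GR sites, and those named untreated held 373 and 143. In 7438 Afos, where names and labels match, Dex+E2 lists held 2564 to 14160 sites and untreated lists 35 to 315. The 7438 ER list of Dex alone also stood apart. It held 10149 sites, of which few met an ER E2 site, while the ER Dex lists of 7438 Afos held 61 and 41. The lists of the lines were made differently: 7438 sites were all 150 bp wide, and 7438 Afos sites were at least 251 bp wide. Read depth is unknown.

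ER was called in the list named for both hormones at 6299 of the 7136 E2 sites (88.3%). GR was found at 2298 of these, and 4001 had no GR. Of the 4001, 1339 (33.5%, 32.0 to 35.0%) were in neither Afos ER E2 list, 547 were in 1 of them (447 in replicate 1 only, 100 in replicate 2 only), and 2115 were in both. The sites in both lists are called retained. Among all 7136 ER E2 sites, 39.5% were in neither Afos list. That share was 41.0% for the sites with GR and 64.5% for the 837 sites that were not in the list named for both hormones. These shares are set by the selection and are given as a description.

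Afos-absent sites were mostly weak ER sites. Their highest tag density with E2, a signal value whose scaling is not stated, ran from 10.0 to 57.9 with a median of 13.9 (quartiles 11.7 and 17.7). Retained sites ran from 10.0 to 127 with a median of 19.8 (14.5 and 28.2), and all ER E2 sites had a median of 17.1. Only 383 Afos-absent sites (28.6%) lay at or above that median, against 1303 retained sites (61.6%). A density under 12 was found at 387 of them (28.9%), and 4 reached the 90th percentile of the list, where 116 retained sites stood. The 547 sites in 1 Afos list lay close to the Afos-absent ones, with a median of 14.6. In the ER list named for both hormones the medians were 17.1 for Afos-absent sites, 18.4 for sites in 1 Afos list and 24.6 for retained sites. Both 7438 lists therefore placed the 3 sets in the same order of median strength.

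The share of sites that were absent with Afos fell as ER strength rose. The 4001 sites without GR were cut into 10 classes at the deciles of their E2 density. From the weakest class to the strongest, the Afos-absent share was 52.2, 53.9, 42.5, 42.0, 38.0, 33.8, 27.5, 20.8, 18.0 and 6.00%. The strongest class began at a density of 33.1 and held 24 Afos-absent sites (exact 95% interval 3.88 to 8.80%) and 365 retained ones. Among all ER E2 sites, with or without GR, the absent share fell from 63.0 to 7.93% over the same classes. Odds ratios against retained sites are therefore Mantel-Haenszel ratios within these classes, and weighted retained shares are weighted to the classes of the Afos-absent sites. Other values set beside retained sites were not matched for strength.

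**Figure D1:**
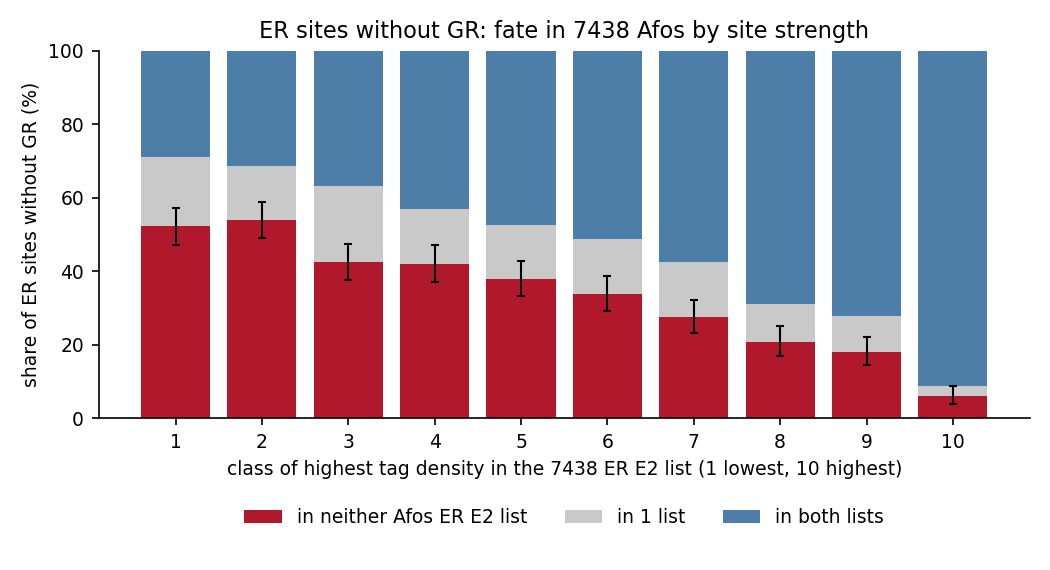
Share of the 4001 ER sites without GR (vertical axis, percent) that were in neither, 1 or both 7438 Afos ER E2 lists, in 10 classes of highest tag density in the 7438 ER E2 list (horizontal axis). Error bars are exact 95% intervals of the share in neither list, which went from 52.2% in the weakest class to 6.00% in the strongest.

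The 10 strongest Afos-absent sites, chosen for their mean rank in both 7438 ER lists, are given as a description. The site of highest mean rank was chr5:135008407-135008557 (mm9), with a density of 52.1 with E2 and 70.9 in the list named for both hormones. It stood at percentiles 92.4 and 94.8 of these lists. The next was chr2:155631151-155631301, with densities of 45.9 and 52.6. At chr1:169162012-169162162 the densities were 57.9 and 43.4. That site lay 660 bp from the centre of an Afos ER E2 site, so ER was called close by in Afos cells. By contrast, chr12:80700042-80700192 (55.2 and 34.8) was 345735 bp from the nearest one. The centre of the nearest 7438 GR site was 8562, 1317, 689 and 430 bp from these sites, in the order given. The other 6 of the top 10 had E2 densities of 38.3 to 44.4, and their nearest GR sites were 21444 to 118177 bp away. None of the 10 was in an Afos Dex+E2 list of either receptor.

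Density in the list named for both hormones followed E2 density less closely at Afos-absent than at retained sites. Spearman's rho across sites was 0.455 for the 1339 Afos-absent sites and 0.760 for the 2115 retained ones. It is given as a description, since the sites of a set share their libraries and the Afos-absent sites span a narrower range of density. The list named for both hormones had the higher density at 67.8% of Afos-absent and 74.6% of retained sites. Scaling and depth of the lists are unknown, so a density above or below that of the other list does not by itself show more or less ER. The ratio of the 2 densities had a median of 1.34 in the weakest class for Afos-absent sites and 1.37 for retained ones. In the next to strongest class the medians were 0.939 and 1.18. The median ratio was lower at Afos-absent sites in each of the 10 classes.

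Some Afos-absent sites moved far between the lists. At chr11:118266106-118266256 density went from 10.2 with E2 to 41.9 in the list named for both hormones, or from percentile 1.74 to 85.2. At chr17:84511618-84511768 it went from 10.6 to 34.2, and at chr2:25515550-25515700 from 10.6 to 31.7. These 3 sites were 183, 248 and 393 bp from the centre of the nearest 7438 GR site, near it without an overlap. In Afos cells with Dex+E2, ER and GR were called at the chr11 and chr17 sites and not at the chr2 site. In the other direction, chr4:43706785-43706935 went from 22.3 to 11.1. The sites chr12:105300206-105300356 (24.7 to 11.8) and chr9:22836542-22836692 (22.9 to 12) moved alike. The nearest GR sites of these 3 were 21227, 495902 and 60607 bp away.

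**Figure D2:**
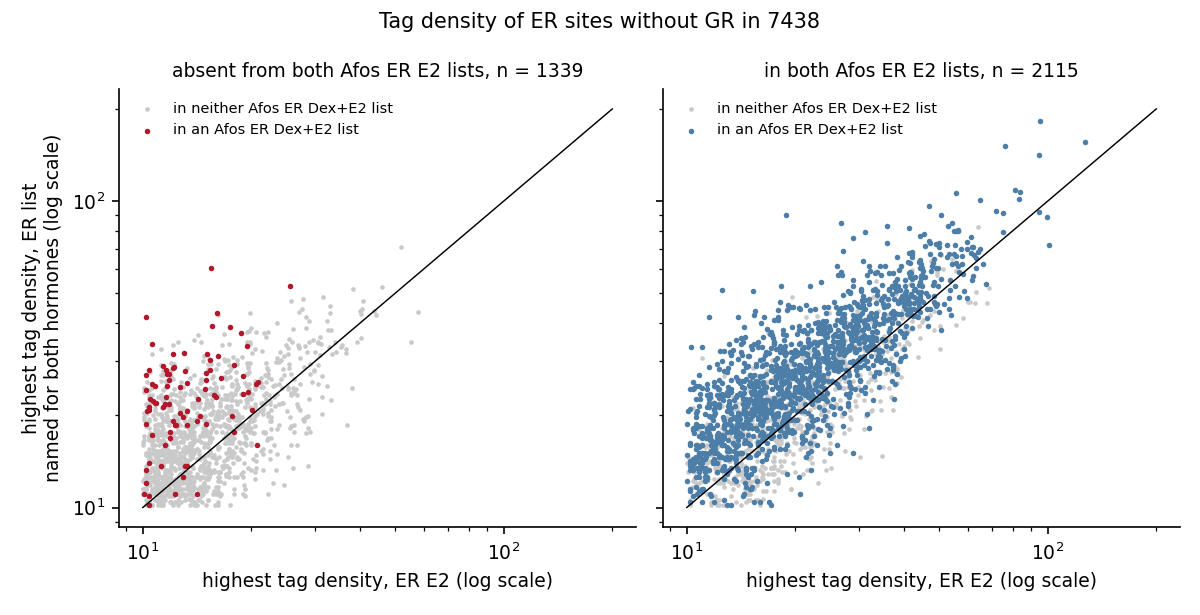
Highest tag density in the ER list named for both hormones (vertical, log scale) against that in the ER E2 list (horizontal, log scale) for 1339 Afos-absent sites (left) and 2115 retained sites (right), with the line of equal density. The scaling of the lists is not stated, so the line is only a guide. Coloured points are the 86 Afos-absent and 1471 retained sites found in an Afos ER Dex+E2 list, and among the Afos-absent sites they lie at low E2 density and mostly above the line.

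Most sites lay clear of the boundary of the selection. Of the 2662 sites without GR that met an Afos ER E2 site, 2620 (98.4%) lay wholly inside it. The fewest bases shared by a site that was left out were 27, 50 and 59. The smallest gaps between an Afos-absent site and an Afos ER E2 site were 32, 48 and 61 bp, at chr15:96604195-96604345, chr4:147352608-147352758 and chr2:49599268-49599418. An Afos ER E2 centre lay within 1000 bp of 50 Afos-absent sites (3.73%) and within 10 kb of 364 (27.2%). For 341 sites (25.5%) there was none within 100 kb. The farthest were chr4:29114651-29114801, at 3247230 bp, chr14:109373305-109373455, at 2961923 bp, and chr4:15921686-15921836, at 2608445 bp. Toward GR, the smallest gaps were 0, 7 and 12 bp, so some Afos-absent sites adjoin a 7438 GR site.

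The Afos lists of both hormones played no part in the selection, and few Afos-absent sites were found in their ER lists. Replicate 1 of Afos ER Dex+E2 held 78 of the 1339 (5.83%, exact 95% interval 4.63 to 7.22%), where 43.9% of all ER E2 sites were found. Replicate 2 held 19 (1.42%, 0.856 to 2.21%), against 25.3% of all. Retained sites numbered 1458 of 2115 (68.9%) in replicate 1 and 670 (31.7%) in replicate 2. Weighted to the strength of the Afos-absent sites, the retained shares were 66.4 and 25.9%. The odds ratio within strength classes was 0.0272 (95% interval 0.0207 to 0.0356) in replicate 1 and 0.0373 (0.0229 to 0.0606) in replicate 2. Intervals cover counting error only, because sites of 1 list are not replicates of a treatment. Both sets were chosen on ER lists of the same Afos line, so they are not independent of these lists, and how much of the difference the choice gives was not tested.

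In either replicate, 86 Afos-absent sites (6.42%, 5.17 to 7.87%) had ER with Dex+E2, against 44.5% of all ER E2 sites. Retained sites had 1471 (69.6%), with an odds ratio of 0.0300 (0.0231 to 0.0388). The 547 sites in 1 Afos ER E2 list lay between, with 132 (24.1%). Of the 19 Afos-absent sites in replicate 2, 11 were also in replicate 1 (57.9%), and of the 670 retained ones 657 were (98.1%). With both 7438 lists named for both hormones left out of the selection, the odds ratio was 0.0397.

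Strength and reappearance ran opposite ways at Afos-absent sites. ER with Dex+E2 was found at 54 of the 595 sites of the 3 weakest classes (9.08%, 6.89 to 11.7%), at 31 of 565 in the middle 4 (5.49%, 3.76 to 7.70%) and at 1 of 179 in the 3 strongest (0.559%, 0.0141 to 3.07%). At retained sites the shares were 65.8, 66.3 and 73.9%. The outer intervals of the Afos-absent sites do not overlap, and the order is the reverse of that of the retained sites. Single classes did not follow a strict order, with 2.38% in class 4, 9.15% in class 5 and 8.26% in class 7 of the Afos-absent sites. Both sets were chosen by calls in the Afos ER E2 lists, and how much of these orders the choice gives was not tested.

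**Figure D3:**
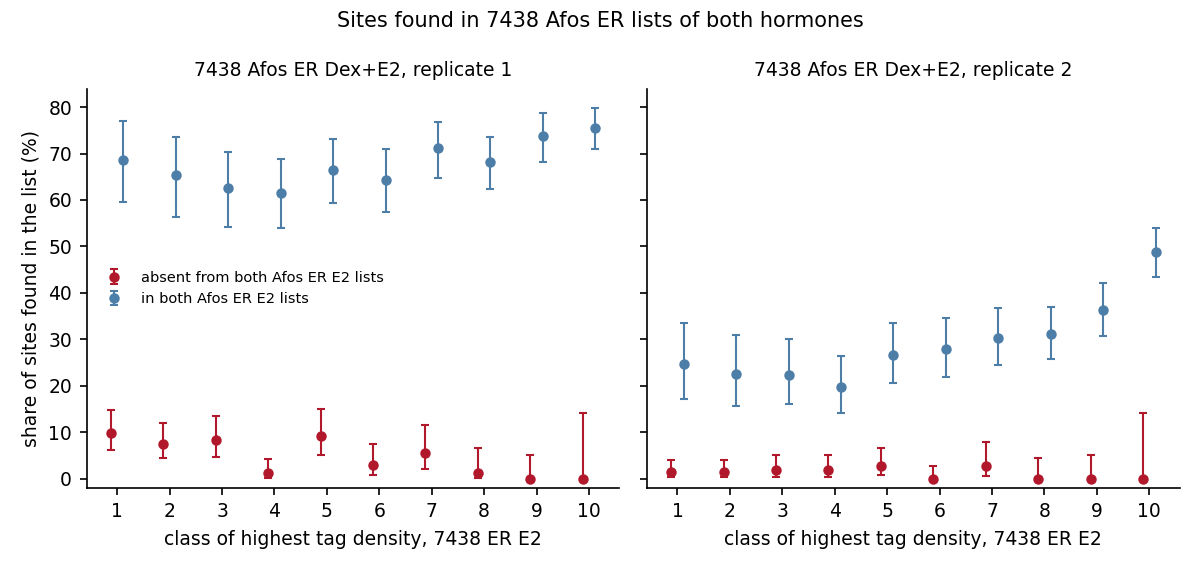
Share of sites (percent, with exact 95% intervals) found in replicate 1 (left) and replicate 2 (right) of the 7438 Afos ER Dex+E2 lists, by class of E2 density in 7438. Afos-absent sites stayed at or under 9.86% in every class of both replicates, and the lowest share of retained sites was 19.8%.

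The 86 sites at which ER reappeared were weaker than the others with E2 and stronger in the 7438 list named for both hormones. Their median densities were 12.6 and 23.0, against 13.9 and 16.6 at the 1253 other Afos-absent sites. The median rise in percentile rank between the lists was 30.7 points (quartiles 17.9 and 51.3) against 5.42 (-8.40 and 20.3). At all ER E2 sites found in both lists the median rise was 5.93 points, close to that of the 1253. A 7438 GR site lay within 500 bp, centre to centre, of 15 of the 86 (17.4%, 10.1 to 27.1%) and of 56 of the 1253 (4.47%, 3.39 to 5.76%). In the list named for both hormones, retained sites with Afos ER under Dex+E2 were also the denser (median 27.3 against 19.3). Their median change of rank was 6.98 against -3.04 points, and 4.69 against 2.17% had a GR site within 500 bp. Unlike the 86, they were also the denser with E2 (20.6 against 18.1). The 86 were called with Dex+E2 and not with E2 in Afos cells, and what this choice gives was not tested. The Afos-absent sites called in both Afos ER Dex+E2 lists numbered 11, where 24.8% of all ER E2 sites were in both. Those of highest E2 density were chr15:101021665-101021815 (16.1 with E2, 43.2 in the list named for both hormones), chr11:117153717-117153867 (15.5 and 60.3), chr12:16854856-16855006 (15.4 and 30.4), chr15:101150146-101150296 (15 and 27.5) and chr14:22359679-22359829 (14.4 and 19.9). All 5 were also in an Afos GR Dex+E2 list. Of these sites, chr11:117153717-117153867 reached percentile 86.5 in replicate 1 of Afos ER Dex+E2 and 74.2 in replicate 2.

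GR in Afos cells was found at few Afos-absent sites, and most of those calls came from the lists of both hormones. With Dex+E2, Afos GR lists held 84 Afos-absent sites (6.27%, 5.03 to 7.71%) in replicate 1 and 55 (4.11%, 3.11 to 5.31%) in replicate 2. All ER E2 sites stood at 38.0 and 28.1% there. Retained sites stood at 818 (38.7%) and 308 (14.6%). In either replicate the counts were 97 (7.24%, 5.91 to 8.77%) and 828 (39.1%), with an odds ratio of 0.118 (0.0926 to 0.151) and 40.3% of all ER E2 sites. Absence of GR from 7438 was part of the selection for both sets, so the 40.3%, which counts sites with GR too, is not a like measure. Both sets were also chosen on ER lists of the same Afos line, and what that choice adds to the difference in Afos GR was not tested.

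With Dex alone, Afos GR was at 31 Afos-absent sites in either replicate (2.32%, 1.58 to 3.27%) and at 40 retained sites (1.89%), where 11.4% of all ER E2 sites were found, and replicate 1, with 11.3% of all, held each of the 31. The odds ratio of 1.38 had an interval of 0.784 to 2.44, so a difference was not detectable in either direction. Of the 31 sites, 28 were also in an Afos GR Dex+E2 list, and these made up 28.9% of the 97. With E2 alone, Afos GR was at 0 of the 1339 Afos-absent sites, which allows a share of up to 0.224%, where 6.45% of all ER E2 sites were found. It was at 158 retained sites (7.47%, 6.39 to 8.67%, or 4.36% when weighted to like strength) in replicate 1 and at 19 of them in replicate 2. Both sets were chosen on ER lists of Afos cells given E2, so they are not independent of these GR lists. How much of the difference the choice gives was not tested. In untreated Afos cells GR was at 3 Afos-absent and 3 retained sites, and at 1.60% of all ER E2 sites. In any Afos GR list there were 100 Afos-absent sites (7.47%) and 847 retained ones (40.0%), with an odds ratio of 0.119 (0.0939 to 0.152) and 40.9% of all ER E2 sites. Without replicate 1 of each Afos treatment that odds ratio was 0.252 (0.182 to 0.348), and with the 7438 lists named for both hormones left out of the selection it was 0.157.

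In Afos cells with both hormones, ER and GR were found together at 54 of the 1339 Afos-absent sites, and neither was found at 1210. GR was called at 54 of the 86 sites where ER reappeared (62.8%, 51.7 to 73.0%) and at 43 of the 1253 others (3.43%, 2.49 to 4.59%). Retained sites had close shares, 54.7% (52.1 to 57.3%) with ER and 3.57% (2.28 to 5.31%) without. The Afos-absent sites had fewer calls of each receptor, and the intervals of the GR share given ER overlapped between the sets. At chr14:109373305-109373455, one of the sites farthest from Afos ER, GR was strong in Afos cells in all 4 lists with Dex or Dex+E2, at percentiles 94.7 to 97.3. A 7438 GR site lay 435 bp from this site, and whether the wider Afos GR sites are that neighbour was not tested. In all, 1205 of the 1339 Afos-absent sites were in no Afos list of either receptor, against 28.3% of all ER E2 sites. Absence from the Afos ER E2 lists, which are among those counted, was part of the selection.

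**Figure D4:**
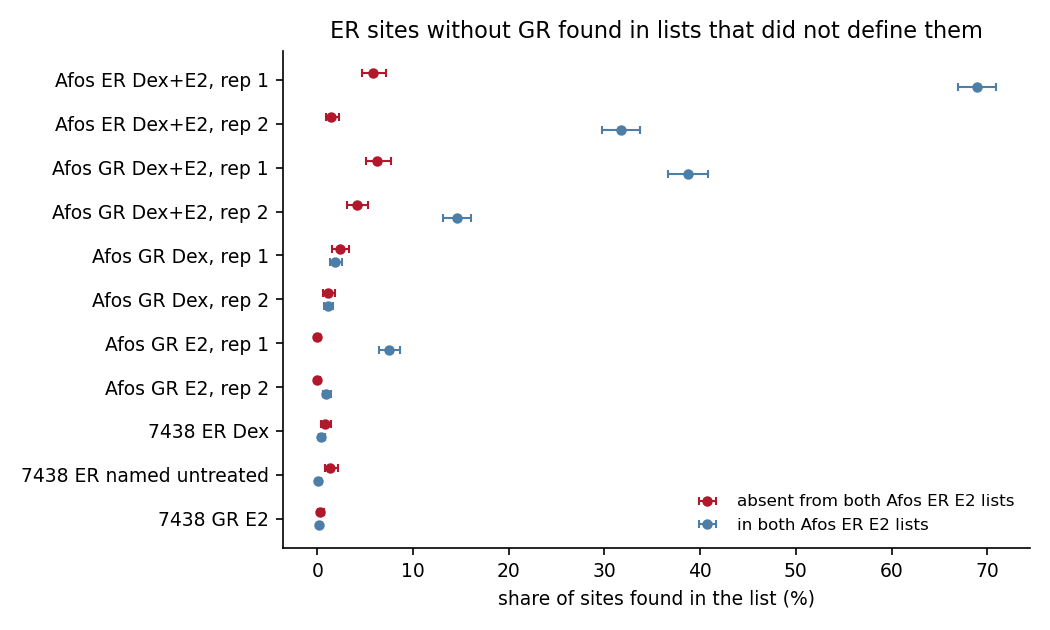
Share of sites (horizontal axis, percent, with exact 95% intervals) of 1339 Afos-absent and 2115 retained sites found in lists that did not define them. The sets stand far apart for both receptors with Dex+E2 in Afos cells (5.83 against 68.9% in ER replicate 1) and close together for Afos GR with Dex (2.32 against 1.89% in replicate 1).

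In 7438 itself, the ER list of Dex alone held 11 Afos-absent sites (0.822%, 0.411 to 1.47%) and 8 retained sites (0.378%, 0.163 to 0.744%), where 1.26% of all ER E2 sites were found. The odds ratio was 2.62 with an interval of 0.930 to 7.40. It was 7.96 (1.07 to 59.4) when the centre of a site had to lie inside the other. The ER list named untreated held 18 Afos-absent sites (1.34%, 0.799 to 2.12%) and 2 retained sites (0.0946%, 0.0115 to 0.341%), against 2.54% of all ER E2 sites. Replicate 1 of Afos ER Dex held 8 Afos-absent and 0 retained sites, against 0.210% of all ER E2 sites, or 15 in number. The 7438 GR list of E2 held 3 sites of each set (2.79% of all ER E2 sites), among the Afos-absent ones chr1:169162012-169162162.

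The 18 Afos-absent sites of the list named untreated are described by position and by their other calls. Of them, 9 lay on chromosome 11, 5 of these in the single locus chr11:87240189-87285148. Chromosome 11 held 112 of the 1321 other Afos-absent sites and 680 of the 7136 ER E2 sites. The 7438 ER Dex list held 6 of the 18 and 5 of the 1321, and replicate 1 of Afos ER Dex held 6 and 2. Their z-score, which is the score assigned to a site by the authors, had a median of 2.35 per unit of highest tag density, against 3.12 at the other Afos-absent sites. Their median densities were 15.7 with E2 and 14.1 in the list named for both hormones, so they were not higher there, unlike the other Afos-absent sites (13.8 and 17.1). The part that background signal has in these calls was not tested. Without the sites called in any of these 3 lists, 1315 Afos-absent sites were left, and the odds ratio for ER with Dex+E2 in Afos cells was 0.0280.

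Within 10 kb, Afos-absent sites had other receptor sites more often than retained sites of like strength. They did not have them more often than all ER E2 sites. Another ER E2 site lay within 10 kb, centre to centre, of 519 Afos-absent sites (38.8%, 36.1 to 41.4%) and of 769 retained sites (36.4%, 34.3 to 38.5%), or 30.4% when weighted to like strength. The odds ratio was 1.38 (1.18 to 1.62), with 41.1% among all ER E2 sites. At 2 kb the odds ratio was 1.22 and its interval, 0.989 to 1.51, included no difference. A 7438 GR site lay within 10 kb of 527 Afos-absent sites (39.4%, 36.7 to 42.0%) and of 646 retained sites (30.5%, weighted 26.4%). This comparison with GR was added after the data were seen. Its odds ratio was 1.75 (1.49 to 2.05) at 10 kb and 2.06 (1.64 to 2.59) at 2 kb. Among all ER E2 sites 56.5% had a GR site within 10 kb, a share that counts those with GR at the site. With the lists named for both hormones left out, the odds ratios at 10 kb were 1.37 for ER and 1.69 for GR.

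**Figure D5:**
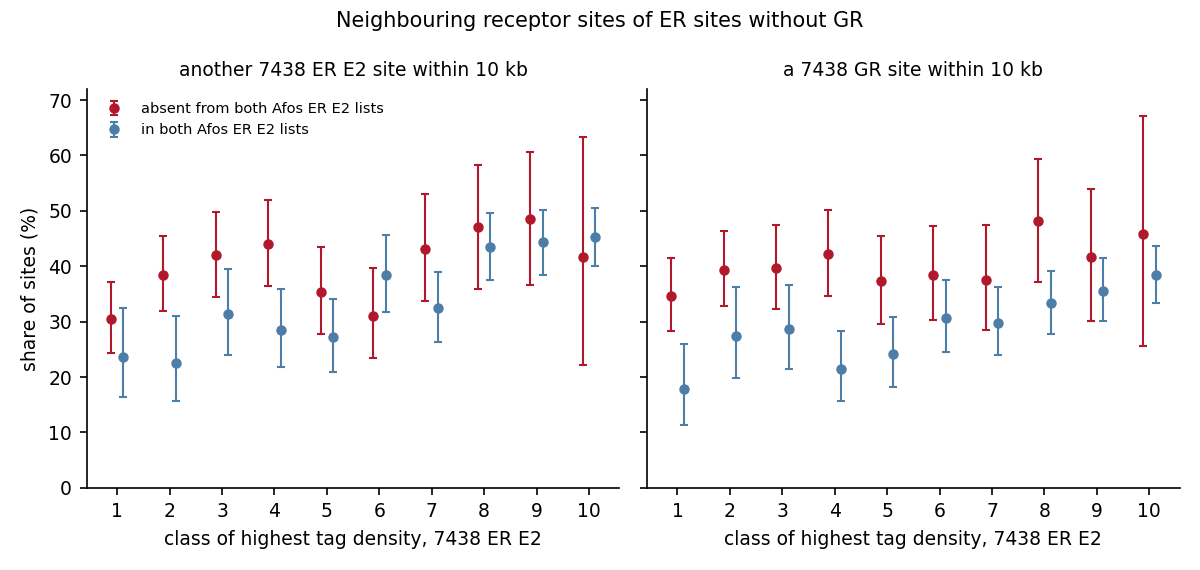
Share of Afos-absent and retained sites (vertical axis, percent, with exact 95% intervals) that have another 7438 ER E2 site (left) or a 7438 GR site (right) within 10 kb, by class of E2 density. In the ER panel the Afos-absent share was the lower in class 6 (31.1 against 38.5%) and class 10 (41.7 against 45.2%) and the higher in the other 8. In the GR panel the Afos-absent share was the higher in each of the 10 classes, from 34.7 against 17.8% in the weakest to 45.8 against 38.4% in the strongest.

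Where an Afos-absent site had an ER neighbour, the neighbour was usually the stronger. The next ER E2 site was the denser for 363 of the 519 (69.9%, 65.8 to 73.9%), against 334 of 769 retained sites (43.4%, 39.9 to 47.0%). Since Afos-absent sites were weak, this is a description that was not matched for strength. The next site was itself Afos-absent for 128 of the 519 and retained for 111. It carried GR for 196 (37.8%), where GR was at 33.5% of all ER E2 sites.

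Nearness to GR in 7438 went with calls in Afos cells. Of the 144 Afos-absent sites within 1 kb of a 7438 GR site, 43 (29.9%, 22.5 to 38.0%) were in an Afos GR list, against 19 of 383 (4.96%) at 1 to 10 kb and 38 of 812 (4.68%, 3.33 to 6.37%) farther away. Afos sites are wider than 7438 sites, so a GR site next to an Afos-absent site could reach it by its width, and this was not tested. ER with Dex+E2 in Afos cells was at 17 of the 144 (11.8%, 7.03 to 18.2%), at 24 of the 383 (6.27%) and at 45 of the 812 (5.54%, 4.07 to 7.35%), with intervals that overlap slightly. The median E2 densities of these groups were close, at 13.7, 14.1 and 13.8. At retained sites the shares were 77.3, 67.3 and 69.6% in the same order.

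Most Afos-absent sites had no other Afos-absent site within 25 kb. The median distance to the next ER E2 site of any kind was 19201 bp. Joining Afos-absent sites whose centres followed each other within 25 kb gave 1190 loci, of which 1070 held a single site and 21 held at least 3. In all, 269 sites (20.1%) were in loci of 2 or more. Retained sites and all ER E2 sites were not joined in this way, so whether that share is high or low was not tested. The locus with the most was chr17:3010223-3030902, with 6 Afos-absent sites among 7 ER E2 sites. Their E2 densities ran from 11 to 19.8, and those in the list named for both hormones from 14.8 to 43.2. At chr11:87240189-87285148 there were 5 among 7 ER E2 sites, 1 of which was retained, and the 5 had E2 densities of 11.4 to 20.7. All 5 of these were in the ER list named untreated (labelled Dex+E2), and 3 were in the 7438 ER Dex list, which stood apart as described above. They are among the 18 sites described above, and the part that background signal has in these calls was not tested. At chr19:42290839-42361562 all 5 ER E2 sites of the locus were Afos-absent (11.9 to 20.6), and 1 of them had ER and GR in Afos cells. A locus of 4, among 7 ER E2 sites, was chr4:45825553-45876038 (10.2 to 27.7). There were 17 loci of 3, tied for the next place, and the one first by chromosome name and position was chr1:169162012-169173346, where the 3 sites had E2 densities of 57.9, 20.6 and 30.6. No gene positions in mm9 were used here, so these loci are given without genes or sequence.

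Afos-absent sites were found on every chromosome with ER sites in the list. Their share of the sites without GR ran from 8% on X (2 of 25, exact 95% interval 0.984 to 26.0%) to 41.5% on chromosome 12 (86 of 207, 34.8 to 48.6%). From the strength of the sites alone, 34.7% was the share for X and 30.8% for chromosome 12. On chromosome 9 the share was 27.2% (52 of 191, 21.0 to 34.1%), with 34.7% from strength. On the other chromosomes the interval included the share given by strength.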

How the data were processed

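ChIP-seq with antibodies against ER or GR was done on 7438 and 7438 Afos cells, and 24 of the 39 samples had a deposited list of called sites (8 of 7438, 16 of 7438 Afos). The other 15 samples were not analysed here. Per the submitters' processing notes the build is mm9 and the software CASAVA 1.8. Neither the aligner nor the peak caller, control or threshold is stated in the sources used here. Per the file headers each site has a highest and an average tag density, a signal value whose scaling is not stated, and a z-score, which the authors assigned as a score to every site. The deposited p-value, in the Afos lists only per the file headers, entered no result. The lowest values in 7438 lists were 10 for highest tag density and 15 for the z-score, and 7438 Afos lists reached lower on both. Coordinates are as deposited, and whether the first base counts as 0 or 1 is not stated.

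Groups followed the labels, except that the 7438 lists went by name in the selection. An overlap of 1 bp or more made a site shared, and distances run from centre to centre. Shares have exact (Clopper-Pearson) 95% intervals. Afos-absent and retained sites were compared with a Mantel-Haenszel odds ratio over 10 classes of E2 tag density, with its Robins-Breslow-Greenland interval. A share of 0 is given with the limit that 3 counts allow. These measures cover counting error, depth is unknown, and no p-value was computed, because sites are not replicates. The overlap step was checked against bedtools 2.31.1, and the odds ratio was tested on simulated data. The sites and lists were chosen with earlier results of these data known. Named sites are the 10 of highest mean rank in the 7438 ER lists, the 3 with the largest shift of rank each way, the 5 densest in both Afos ER Dex+E2 lists, the 5 loci with the most sites (ties by chromosome name and position), and the 3 nearest to and farthest from Afos ER. Other sites were named after their values were seen. Motifs and genes were left out, because no mm9 genome was used here. Computation used Python 3.11.15, NumPy 2.4.6, SciPy 1.17.1, pandas 2.3.3 and matplotlib 3.10.9.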

Additional observations from a re-analysis of the deposited data

How the results depend on the processing

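The number of Afos-absent sites was 383 among ER E2 sites at or above the median density, 2254 when only Afos sites at or above their median density counted, 26 with treatment by sample label, and 2026 with the lists of contradicting names left out. Leaving out either Afos replicate gave 1439 to 1786. When Afos sites also had to pass the 7438 limits it was 1816. The odds ratio for ER with Dex+E2 was 0.0408 with strength by density in the list named for both hormones, 0.0397 with the contradicting lists left out, and 0.0272 to 0.0373 without either replicate. For any Afos GR list it was 0.194 when only Afos sites at or above their median density counted, 0.157 with the contradicting lists left out, and 0.106 to 0.252 without either replicate. For the 7438 ER Dex list it was 7.96 with the centre inside the other site, and for a nearby GR site 2.06 at 2 kb. The cause of these shifts was not tested. No odds ratio crossed to the other side of 1 under any alternative run. Under the label reading only 6 retained sites were left, so no odds ratio is given (5 of the 26 Afos-absent and 5 of the 6 retained sites were in an Afos ER Dex+E2 list). The limits and lists added after seeing the data are the contradicting lists left out, the 7438 limits, the removal of sites also in ER lists named untreated or Dex, and nearness to GR. The planned motif comparison and its alternatives were not run, because no mm9 genome was used here. No paired analysis was possible because the results come from no test across samples and 7438 has 1 list per treatment. Counts of Afos-absent sites under 20 limit the comparisons with the 7438 lists of Dex, untreated and GR E2.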
